A study of Rattus norvegicus with 8 samples.

Results

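Cytochrome P450 genes were followed in the hippocampus of rats fed coral calcium hydride (CCH), a powdered feed supplement, and of Control rats. Members were all non-control array probes whose RefSeq accession maps to a symbol made of Cyp, a number, letters and a number, without Cyp51. The rule gave 63 probes for 57 genes, of 41012 probes on the array, 15184 of which carried a gene symbol. The 4 CCH rats and the 4 Control rats were male Wistar rats by their titles and treatment labels, 6 weeks old at the start and killed at 8 weeks. The feed of the CCH rats held 0.1% CCH powder, and that of the Control rats was the same standard feed without it. The submitters' stated subject was antioxidant capacity of the brain. One whole-hippocampus RNA sample per rat was hybridised to a 1-colour array. GEO's free-text sample descriptions name lesions with saline or L-DOPA injection, which contradicts those labels, and were not used.

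P450 enzymes are haem proteins that insert oxygen into lipids, steroids, vitamins and foreign compounds, using electrons passed on by P450 reductase or, in mitochondria, by ferredoxin. The liver holds most of the drug-metabolising members, while the brain uses others to clear cholesterol, break down retinoic acid, and make or remove signalling fatty acids and neurosteroids. Of 81 P450 symbols of this form in the reference table, 24 had no matched probe, among them Cyp46a1, the brain's cholesterol hydroxylase, Cyp19a1, the aromatase, Cyp2u1 and Cyp2d1, and these were not analysed here.

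All CCH arrays sat on 1 slide and all Control arrays on another, each with its own scan, so diet, slide and scan cannot be told apart in any comparison. The 75th percentile of processed signal ran from 642 to 882 on CCH arrays and from 563 to 700 on Control arrays, and 76.3% to 79.9% of spots per array were well above background by the scanner software's call. Signals quoted below are this linear, background-subtracted processed signal before scaling. It stays positive even where a spot was no brighter than its local background, so the lowest values are not measured amounts. Cyp11a1 on CCH 2, for instance, had a spot brightness minus local background of -2 and a processed signal of 1.44. Differences and overlaps were taken after scaling, as log2 signal minus the array's own 75th percentile. Precision is limited by there being 4 arrays per diet. Scaled log2 levels of 9 tested neuron markers averaged 1.25 to 1.32 on CCH arrays and 1.14 to 1.37 on Control arrays. Rbfox3, the remaining neuron marker of the 10 listed, was not tested. Of 10 oligodendrocyte markers 9 were higher in CCH, with means of 2.99 to 3.34 on CCH arrays and 2.75 to 3.00 on Control arrays. Of 10 microglia markers 8 were lower in CCH, with means of 0.17 to 0.35 on CCH arrays and 0.32 to 0.53 on Control arrays. None of the oligodendrocyte or microglia markers was called, the ranges overlap slightly for both lists, and their part in the P450 values was not tested. Choroid plexus markers differed widely between single rats, with means of -4.22 to 0.80 on CCH arrays and -1.39 to 1.34 on Control arrays, and 14 of 14 tested were lower in CCH, 0 of them called. Otx2, the remaining choroid marker of the 15 listed, was not tested. In whole-tissue RNA, fewer cells of a type and less RNA per cell cannot be told apart.

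Detection of the P450 probes lay mostly at the extremes of all arrays or none. Of the 63 probes, 23 (36.5%) for 22 genes were well above background on all 8 arrays, against 72.1% of all probes on the array. A further 28 (44.4%) never were, against 16.6% of all probes, and 12 were so on 1 to 6 arrays. By gene, 22 were detected on all arrays, 12 on some, and 23 on none with any probe. The CCH arrays had 30, 25, 27 and 26 P450 probes well above background and the Control arrays had 27, 30, 32 and 29. The means were 27.0 ± 2.16 in CCH and 29.5 ± 2.08 in Control (SD, n = 4 each, two-sided exact permutation p = 0.229, where 0.0286 is the smallest 4 against 4 can give). The counts of the groups overlap. By the scanner software's other detection call, positive and significant signal, the counts were 39, 40, 39 and 37 in CCH and 40, 49, 47 and 42 in Control. Their means were 38.75 ± 1.26 in CCH and 44.5 ± 4.20 in Control (SD, n = 4 each, two-sided exact permutation p = 0.0571), and the groups meet at 40.

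**Figure D1:**
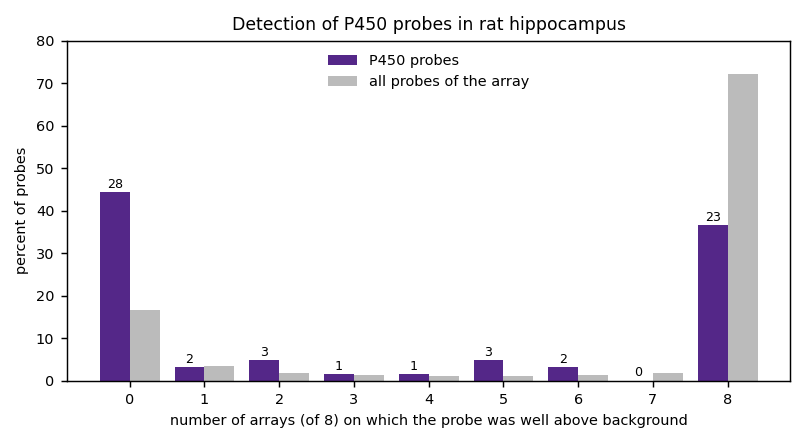
Percent of probes (vertical axis) by the number of arrays, of 8, on which they were well above background (horizontal axis), for the 63 P450 probes (purple, with their number above each bar) and all 41012 probes of the array (grey). The P450 probes pile up at 0 arrays (28 probes) and at 8 arrays (23 probes).

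The undetected set held many of the classical liver enzymes. Of 29 probes for the drug-metabolising families 2 and 3 outside 2J, 2R and 2U, 5 were detected on all arrays and 17 on none. Those at background included Cyp2e1, the ethanol-oxidising enzyme, with signals of 3.73 to 5.27 in CCH and 3.79 to 5.37 in Control. All 4 probes of the liver gene Cyp2c7 stayed between 1.20 and 2.07 in CCH and between 0.89 and 2.50 in Control. Across the 28 undetected probes the signal spanned 0.891 to 6.59, and Cyp2f4 held the highest of these, in CCH.

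None of the P450 genes passed the test between diets. Of 29 probes tested, which were well above background on at least 4 arrays, limma called 0 at an adjusted p under 0.05 over all 31618 tested probes, where 0.174% of all tested probes were called. At an unadjusted p under 0.05, 2 P450 probes were higher in CCH (Cyp4a2 and Cyp4b1; 8.79% of all tested probes) and 3 were lower (Cyp26a1, Cyp11b1 and Cyp3a62; 6.59% of all). After scaling, the groups did not overlap for 1 probe higher in CCH (Cyp4a2; 6.59% of all tested probes) and 2 lower (Cyp26a1 and 1 probe of Cyp2j3; 4.7% of all). Of the 29, 14 had a positive and 15 a negative difference, with a median log2 difference of -0.01 against 0.03 over all tested probes. With normexp background correction the split was 9 positive and 20 negative, and the median over all tested probes was -0.07. Of all tested probes 55.1% were positive with processed signal and 36.6% with normexp. The median SD among rats was 0.32 in CCH and 0.25 in Control for P450 probes, against 0.21 in CCH and 0.16 in Control for all tested probes.

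**Figure D2:**
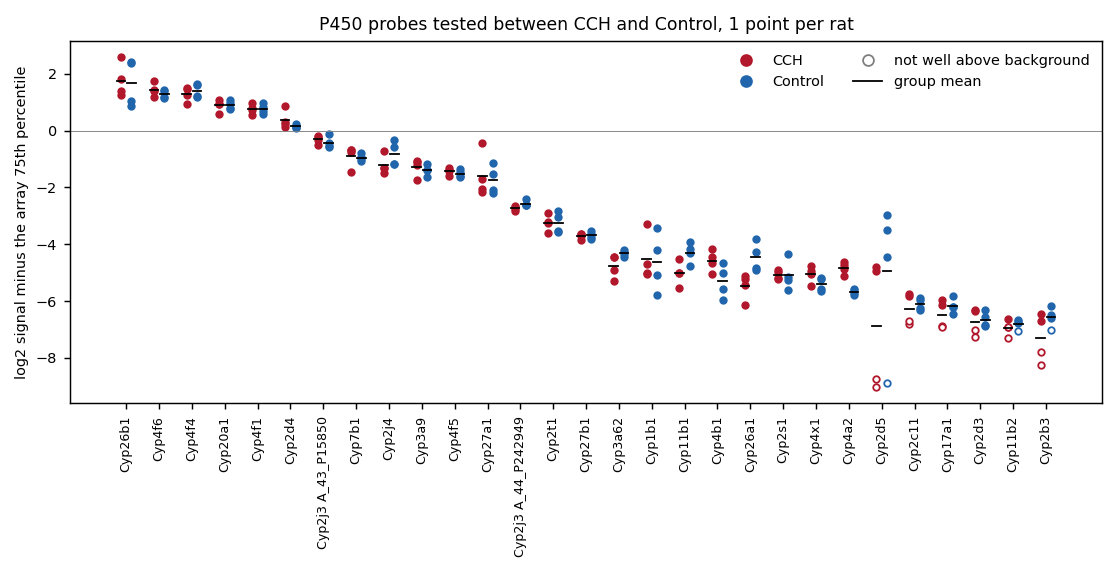
Scaled log2 signal (vertical axis, log2 signal minus the array's 75th percentile) of the 29 tested P450 probes (horizontal axis, in order of mean signal), 1 point per rat, CCH in red left of Control in blue, with black bars at group means and open points where the probe was not well above background. The signals of different probes are not on a common scale of RNA amount; CCH and Control points intermingle for most probes.

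The P450 enzymes that break down retinoic acid, the vitamin A signal, differed in brightness and in their spread between rats. The promoter of Cyp26a1 is shown because this gene had the smallest p among members with lower signal in CCH. It is printed as the 250 bases before the RefSeq start on the gene's strand (GRCr8, chr1:244883572-244883821, plus strand). Capitals mark the match, on the opposite strand, to a pair of AGTTCA hexamers in direct repeat, spaced by any 5 bases, the arrangement bound by retinoic acid receptors. It lies 92 to 76 bases before the start. Both strands were searched, and 3 of 33469 promoters (0.00896%) held this motif in this exact spelling. Repeats of other hexamer spellings at this spacing were not counted, so this is not the share of promoters with retinoic acid receptor sites. The match is a description of the letters.

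Cyp26a1 promoter: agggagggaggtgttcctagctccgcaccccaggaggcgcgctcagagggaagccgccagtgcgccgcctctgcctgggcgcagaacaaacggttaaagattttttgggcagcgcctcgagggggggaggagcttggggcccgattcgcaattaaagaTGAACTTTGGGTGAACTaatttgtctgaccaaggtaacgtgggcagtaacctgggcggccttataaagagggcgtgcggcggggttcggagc

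Cyp26a1 had signals of 12.5, 20.2, 19.0 and 14.8 on the CCH arrays and of 24.7, 40.3, 20.0 and 30.1 on the Control arrays. Every CCH array lay below every Control array after scaling. The difference was a log2 of -1.02 ± 0.30 (SE, n = 4 each, limma adjusted p = 0.170), 2.03-fold higher in Control, and -0.45 with normexp. These signals are dim, with a spot brightness of 54.4 ± 3.94 in CCH and 67.6 ± 9.05 in Control over local backgrounds of 35.4 ± 1.11 in CCH and 34.8 ± 0.96 in Control (SD, n = 4 each).

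Cyp26b1, the second retinoic acid hydroxylase, had the brightest P450 probe. Its signals were 2118, 4479, 2302 and 1682 on the CCH arrays and 3757, 1031, 3117 and 1201 on the Control arrays. CCH 2 and Control 1 and 3 were high and the groups overlap, with a difference of 0.08 ± 0.44 (SE, adjusted p = 0.955) and a 95% interval of -0.996 to 1.16. Over 8 rats Cyp26b1 followed the mean of 13 meninges and fibroblast markers (Pearson r = 0.874, exact permutation p = 0.00623, adjusted 0.380; Spearman rho = 0.857, exact p = 0.0107, adjusted 0.276). Without the 2 rats farthest from the median of the marker mean, r was 0.813, and within diets it was 0.635 in CCH and 0.993 in Control. That marker mean ran from 0.15 to 1.45 in CCH and from -0.59 to 2.95 in Control, and its part in the level was not tested.

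The vitamin D genes gave no call. Cyp27b1, which makes active vitamin D, had signals of 51.3 to 67.8 in CCH and 43.6 to 51.2 in Control, a scaled difference of -0.02 ± 0.10 (SE, adjusted p = 0.948). Cyp24a1, which inactivates it, was not well above background on any array. Cyp2r1, the liver-type vitamin D hydroxylase, was well above background on 2 CCH arrays and 0 Control arrays and was not tested. It had 9.29, 8.77, 5.61 and 6.75 in CCH and 1.62, 5.76, 4.63 and 5.49 in Control. The groups overlap. By processed signal the CCH mean, which includes arrays not well above background, lay 1.12-fold above the lowest measurable Control level. With normexp the log2 difference was -0.22, near the median of -0.25 of all 6809 never-detected probes, so its sign gives no direction.

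Fatty acid hydroxylases and epoxygenases had 10 of 13 probes well above background on every array. Of those tested, 6 had a positive and 4 a negative difference (4 and 6 with normexp), and 0 were called. The positive share of all tested probes was 55.1% with processed signal and 36.6% with normexp. Cyp4a2, a fatty acid omega-hydroxylase known in liver and kidney as a target of the lipid-sensing receptor PPARA, came nearest to the threshold. Its signals were 35.5, 21.3, 22.3 and 24.3 on CCH arrays and 14.4, 10.6, 10.7 and 12.4 on Control arrays. Each CCH array was above each Control array. The difference was 0.83 ± 0.13 (SE, n = 4 each, limma adjusted p = 0.0529), 1.78-fold, with a 95% interval of 0.52 to 1.13. With normexp it was -0.02, where never-detected P450 probes lay between -0.35 and -0.15. Over the alternative processings the adjusted p ran from 0.0217 to 0.922, and it passed with detection on all 8 arrays (0.0408), with array weights (0.0217) and without CCH replicate 1 (0.0382). The spot brightness was 57.5 ± 6.03 in CCH and 44.6 ± 2.75 in Control over local backgrounds of 33.0 ± 1.35 in CCH and 30.25 ± 0.50 in Control (SD, n = 4 each). The closely related Cyp4a3 and Cyp4a8 were never well above background, with signals of at most 1.99 in CCH and 2.82 in Control. Cyp4a1 was so on 1 array, a Control.

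The 250 bases before the Cyp4a2 start (GRCr8, chr5:134170909-134171158, minus strand, printed on the gene's strand) are shown because this member had the smallest p. Capitals mark the hexamers AGGTCA, found in 14.1% of all promoters, and AGTTCA, found in 12.2%, both of which nuclear receptors use. Of the P450 promoter entries 36.2% held AGGTCA and 27.7% AGTTCA. The never-detected Cyp4a3 has both at the same distances from its start, so they do not set Cyp4a2 apart. A direct repeat of AGGTCA spaced by any 1 base, typical of PPAR sites, is in 0.0508% of all promoters and in 0 of the 47 P450 promoter entries. Both strands of these 250 bases were searched, for exact spellings only. Repeats spelled otherwise or lying farther from the start were not counted.

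Cyp4a2 promoter: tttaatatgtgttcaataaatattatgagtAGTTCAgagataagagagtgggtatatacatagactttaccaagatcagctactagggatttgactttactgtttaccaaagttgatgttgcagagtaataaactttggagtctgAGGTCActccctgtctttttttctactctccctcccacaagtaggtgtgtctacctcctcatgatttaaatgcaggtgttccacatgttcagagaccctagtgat

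Cyp4b1, which oxidises fatty acids and some inhaled toxins in lung, had signals of 34.6, 41.5, 29.8 and 19.5 in CCH and 21.8, 9.07, 23.8 and 12.1 in Control. After scaling CCH 2 and 3 lay above every Control array and CCH 1 and 4 among them (0.71 ± 0.30, SE, adjusted p = 0.305; -0.06 with normexp). Cyp4x1, a brain-expressed member that in humans epoxidises the endocannabinoid anandamide, had 19.8, 24.4, 19.8 and 23.5 in CCH and 13.9, 11.8, 16.1 and 16.1 in Control. Its groups overlapped after scaling (0.34 ± 0.18, SE, adjusted p = 0.411; -0.11 with normexp).

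The 4F enzymes Cyp4f1, Cyp4f4 and Cyp4f6, which hydroxylate leukotriene B4 and related lipids, were among the brightest. Cyp4f6 had 2935, 1713, 1749 and 1697 in CCH and 1560, 1520, 1570 and 1329 in Control (0.14 ± 0.13, SE, adjusted p = 0.661). Cyp4f4 had 2095, 2064, 1263 and 1791 in CCH and 1588, 1703, 1373 and 1813 in Control (-0.12 ± 0.16, SE). Cyp4f1 had 1514, 1244, 968 and 1253 in CCH and 1128, 1100, 895 and 1048 in Control (-0.01 ± 0.12, SE). Groups overlapped for all of these.

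Cyp2j3, an arachidonic acid epoxygenase, had 2 probes that disagreed in sign. Its brighter probe had 622, 661, 560 and 508 in CCH and 486, 516, 398 and 427 in Control (0.11 ± 0.13, SE, adjusted p = 0.740). The dimmer probe had 123, 119, 102 and 95.2 in CCH and 114, 105, 96.2 and 95.7 in Control. After scaling, the CCH values of the dimmer probe all lay below the Control values (-0.16 ± 0.09, SE, adjusted p = 0.430). Cyp2j4, its relative, had 316, 298, 401 and 260 in CCH and 555, 250.5, 404 and 258 in Control, with overlap (-0.39 ± 0.24, SE, adjusted p = 0.489).

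The xenobiotic families had a few members with signal. Cyp2d4, the main 2D enzyme of rat brain, had 1602, 881, 721 and 800 in CCH and 769, 669, 654 and 618 in Control. CCH 1 stood high and the scaled groups overlapped (0.24 ± 0.16, SE, adjusted p = 0.525). Cyp3a9, a steroid-hydroxylating 3A enzyme, had 261, 350, 315 and 279 in CCH and 224, 217, 228 and 259 in Control (0.12 ± 0.17, SE, adjusted p = 0.800). Cyp3a62 had 22.3, 33.9, 21.9 and 29.6 in CCH and 37.6, 27.9, 31.1 and 26.7 in Control, with overlap (-0.46 ± 0.19, SE, adjusted p = 0.301; -0.31 with normexp). Never-detected P450 probes lay between -0.35 and -0.15 with normexp.

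Cyp2d5, named after its values were seen, differed widely between rats. Its signals were 1.71, 24.2, 23.6 and 1.51 on CCH arrays and 89.0, 50.3, 27.3 and 1.24 on Control arrays. CCH 1 and 4 and Control 4 were not well above background, so rats without a measured signal occurred in both diets (-1.93 ± 1.5, SE, adjusted p = 0.596). That difference includes the unmeasured values of those arrays. The related Cyp2d3 stayed between 5.73 and 8.14 in CCH and between 5.06 and 7.01 in Control. Probe sequences were not used here, so binding of related transcripts to a probe was not tested. Cyp2b3 was near background, with 8.52, 3.34, 7.50 and 2.10 in CCH and 7.32, 7.74, 6.72 and 4.50 in Control (-0.74 ± 0.40, SE, adjusted p = 0.431; -0.24 with normexp). Cyp2s1, a dioxin-inducible member, had 29.2, 20.7, 21.1 and 17.4 in CCH and 19.5, 27.7, 15.8 and 12.01 in Control (0.02 ± 0.24, SE). Cyp2a2, also named after its values were seen, was well above background on 0 CCH and 3 Control arrays. Its Control mean, which includes the unmeasured Control 1 at 3.86, lay 1.37-fold above the lowest measurable CCH level. Control 3, at 22.9, decided this, since without it the Control mean lay below that level, by a log2 of -0.13. With normexp the log2 difference was -0.31. Never-detected P450 probes lay between -0.35 and -0.15 there, so its sign gives no direction.

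**Figure D3:**
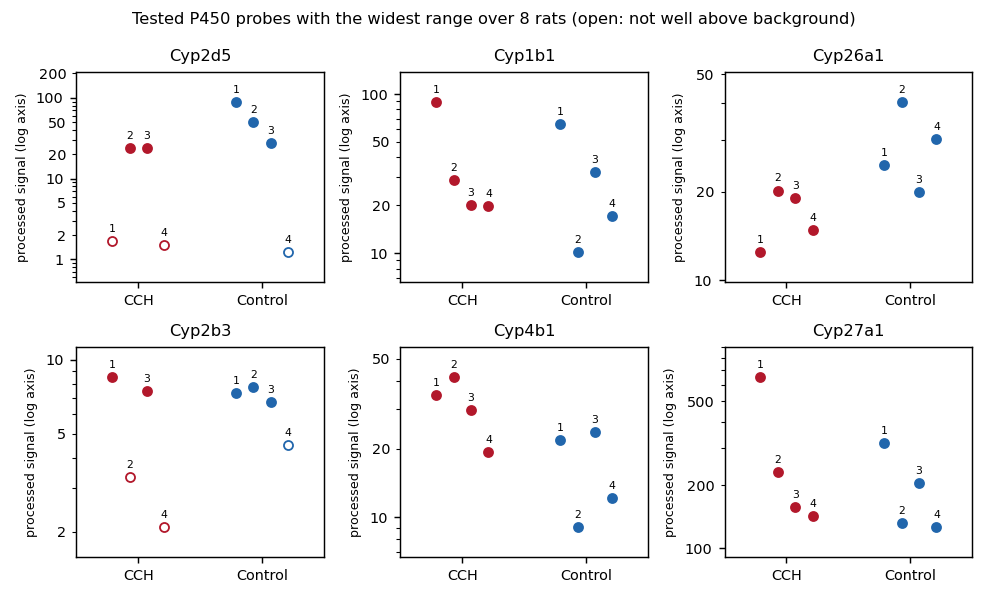
Processed signal (vertical log axes) of the 6 tested P450 probes with the widest range over rats, values not well above background included, 1 numbered point per rat, CCH in red left of Control in blue, open where not well above background. Cyp2d5 is near 1 to 2 on CCH 1 and 4 and Control 4 and between 23.6 and 89.0 on the others.

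Of the aryl hydrocarbon receptor targets of family 1, 1 of 3 genes was detected. Cyp1a1, the gene most strongly induced by that receptor, stayed at 1.35 to 1.87 in CCH and 1.25 to 2.12 in Control, and both probes of Cyp1a2 were at background. Cyp1b1, which hydroxylates oestradiol and is found in vessel walls and fibroblasts, had 89.3, 28.7, 20.2 and 19.6 in CCH and 64.7, 10.2, 32.2 and 17.1 in Control. CCH 1 and Control 1 were high, and the groups overlap (0.11 ± 0.56, SE, adjusted p = 0.949). Against the meninges and fibroblast markers Cyp1b1 gave Pearson r = 0.769 over 8 rats (exact permutation p = 0.0273, adjusted 0.526) and Spearman rho = 0.857 (exact p = 0.0107, adjusted 0.276). Without the 2 farthest rats r was 0.497, and within diets it was 0.356 in CCH and 0.955 in Control. Against 11 endothelium and pericyte markers Cyp1b1 gave r = 0.643 (exact permutation p = 0.0783, adjusted 0.649) and rho = 0.905 (exact p = 0.00456, adjusted 0.212). There r was 0.918 without the 2 farthest rats, 0.765 within CCH and 0.622 within Control.

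The 250 bases before the Cyp1b1 start (GRCr8, chr6:21094315-21094564, plus strand) are shown because Cyp1b1 varied most among P450 probes detected on all arrays. Capitals mark GCGTG and its opposite-strand form, the core bound by the aryl hydrocarbon receptor, present in 25.9% of all promoters. The longer TNGCGTG, which contains that core, is in 4.09% of all promoters and also occurs here.

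Cyp1b1 promoter: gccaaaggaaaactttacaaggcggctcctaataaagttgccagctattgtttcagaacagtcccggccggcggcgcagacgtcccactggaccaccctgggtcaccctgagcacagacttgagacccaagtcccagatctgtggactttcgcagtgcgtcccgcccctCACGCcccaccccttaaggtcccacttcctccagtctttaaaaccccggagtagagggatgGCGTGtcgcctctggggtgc

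Cholesterol and bile acid enzymes were detected for 2 of 5 genes. Cyp7b1, which hydroxylates oxysterols and the neurosteroids dehydroepiandrosterone and pregnenolone in brain, had 319, 447, 409 and 402 in CCH and 330, 293, 296 and 334 in Control. CCH 1 was the lowest after scaling, and the groups overlap (0.07 ± 0.18, SE, adjusted p = 0.897). Cyp27a1, the mitochondrial sterol hydroxylase, had 653, 231, 158 and 143 in CCH and 317, 133, 205 and 127 in Control. CCH 1 and Control 1 were highest, and the groups overlap (0.16 ± 0.40, SE, adjusted p = 0.894). Cyp7a1 and Cyp8b1 of liver bile acid synthesis and Cyp39a1, which acts on hydroxycholesterol, were never well above background.

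Of 6 steroid-making genes, 1 was well above background on all arrays, 3 on some and 2 on none. Cyp11a1, which starts steroid synthesis from cholesterol, had 1.62, 1.44, 1.39 and 1.44 in CCH and 1.62, 1.19, 1.04 and 1.19 in Control, and Cyp21a1 was likewise never detected. Cyp11b1, the last step to corticosterone in the adrenal, had 27.2, 16.2, 20.3 and 28.3 in CCH and 25.7, 28.2, 33.6 and 38.4 in Control. After scaling CCH 1 to 3 lay below every Control array and CCH 4 among them (-0.73 ± 0.24, SE, limma adjusted p = 0.210; -0.42 with normexp). Cyp17a1, which makes androgen precursors, had 14.1, 6.34, 5.44 and 9.15 in CCH and 8.05, 7.65, 8.00 and 10.4 in Control, well above background on 2 CCH and 4 Control arrays (-0.30 ± 0.25, SE, adjusted p = 0.614; -0.235 with normexp). Cyp20a1, an orphan P450 with no settled substrate, was bright, with 1337, 1569, 1267 and 1215 in CCH and 1472, 958, 1173 and 1000 in Control (-0.01 ± 0.13, SE, adjusted p = 0.974).

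**Figure D4:**
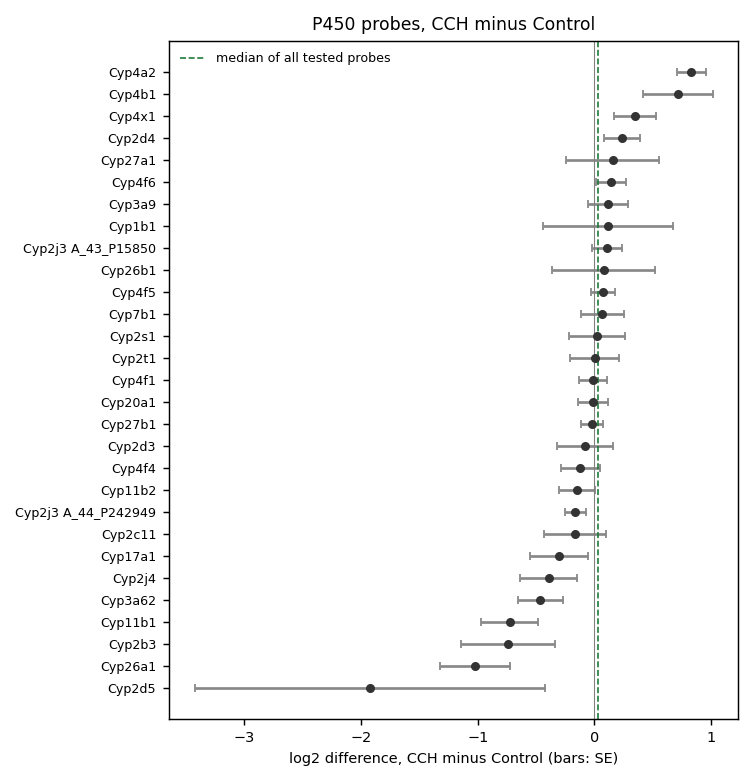
Log2 difference, CCH minus Control (horizontal axis), of the 29 tested P450 probes (vertical axis), with bars of 1 SE and a dashed line at the median of all tested probes, 0.03. Cyp4a2 stands at 0.83 with a short bar and Cyp2d5 at -1.93 with a bar of 1.5.

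Several dim members had a positive difference with processed signal and a negative one with normexp. With normexp in place of the scanner software's subtraction, the difference of Cyp4a2 was -0.02, that of Cyp4b1 -0.06 and that of Cyp4x1 -0.11. The 28 never-detected P450 probes then lay between -0.35 and -0.15, and all 6809 never-detected probes between -0.42 and -0.11. Cyp4a2 and Cyp4b1 lay above both ranges, near the median of -0.06 of all probes detected on all arrays, and Cyp4x1 above the first. Of the dim members lower in CCH at an unadjusted limma p under 0.05, Cyp3a62, at -0.31, lay within both ranges. Cyp11b1, at -0.42, lay below the first and at the lower end of the second, and Cyp26a1, at -0.45, below both. A negative value with normexp is thus not by itself a lower level in CCH. The median difference of the 28 never-detected P450 probes was -0.10 with processed signal and -0.25 with normexp, and that of all 6809 never-detected probes was -0.03 with processed signal and -0.25 with normexp. For the 23 P450 probes detected on all arrays the medians were 0.07 with processed signal and -0.06 with normexp, and for all 29564 probes so detected they were 0.03 with processed signal and -0.06 with normexp.

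**Figure D5:**
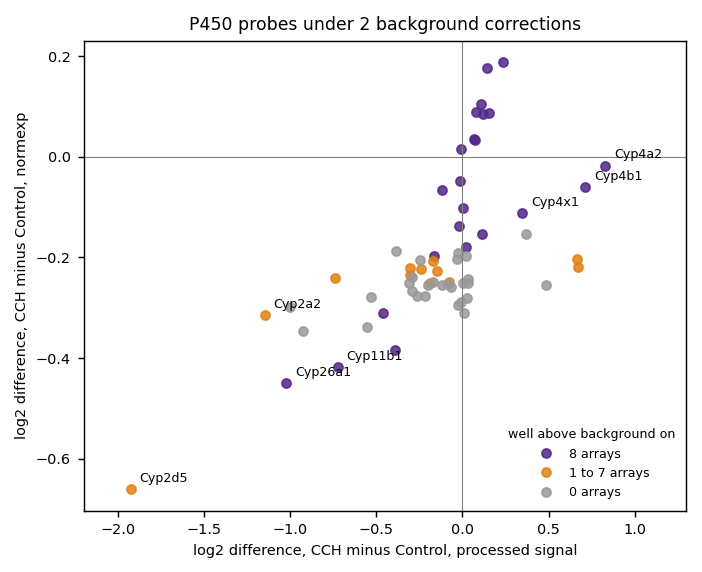
Log2 difference, CCH minus Control, with normexp (vertical axis) against that with processed signal (horizontal axis), 1 point per P450 probe, coloured by the number of arrays on which it was well above background. Cyp4a2, Cyp4b1 and Cyp4x1 lie right of the vertical zero line and below the horizontal one, and never-detected probes gather near -0.25 on the vertical axis.

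The genes that serve P450 enzymes also gave no call. Of 19 electron donors and haem genes 7 had a positive and 12 a negative difference (6 and 13 with normexp). The positive share of all tested probes was 55.1% with processed signal and 36.6% with normexp. At an unadjusted p under 0.05, 2 of their 26 tested probes were lower in CCH, a share near the 6.59% of all tested probes. These were Uros, a haem synthesis enzyme, with 279, 232, 167 and 177 in CCH and 275, 235, 192 and 218 in Control (-0.38 ± 0.12, SE, limma adjusted p = 0.180), and Pgrmc1, a haem-binding partner (-0.27 ± 0.11, SE, adjusted p = 0.276). Por, the P450 reductase, had 4395, 2670, 2028 and 2169 in CCH and 2239, 1889, 1842 and 1635 in Control, with CCH 1 high (0.25 ± 0.15, SE, adjusted p = 0.488).

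Among 12 tested regulators, 7 were positive and 5 negative with processed signal, where 55.1% of all tested probes were positive. With normexp 2 were positive and 10 negative, where 36.6% of all tested probes were positive. Hnf4a, a liver nuclear receptor, had the smallest p, with 29.8, 25.6, 21.2 and 20.4 in CCH and 13.1, 15.4, 15.1 and 15.1 in Control (0.46 ± 0.13, SE, adjusted p = 0.154; -0.12 with normexp), and its other probe was not tested. The glucocorticoid receptor gene Nr3c1 differed by 0.20 ± 0.08 (SE, limma adjusted p = 0.270) on its probe with the smallest p. On its other tested probes it differed by 0.17 ± 0.12 (SE, adjusted p = 0.548) and 0.21 ± 0.24 (SE, adjusted p = 0.727). The aryl hydrocarbon receptor gene Ahr differed by 0.17 ± 0.21 (SE, adjusted p = 0.749, and -0.17 with normexp). Of 19 tested neighbours in lipid and drug metabolism, 8 were positive and 11 negative (6 and 13 with normexp). Srd5a1, which makes neurosteroids by reducing progesterone, differed by -0.17 ± 0.08 (SE, adjusted p = 0.354; -0.01 on its other probe). The epoxide hydrolase gene Ephx1 differed by -0.15 ± 0.26 (SE) and Ephx2 by -0.52 ± 0.32 (SE).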

How the data were processed

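Total RNA of 8 hippocampi, 1 array per rat, was Cy3-labelled and run on 1-colour Agilent arrays, per the labels' protocols. Spots were extracted with Agilent Feature Extraction 9.5, per the submitters' processing notes, and the authors deposited the processed signal, a linear intensity with background subtracted and no scaling between arrays, per the file headers. The deposited value table equals it after rounding. Probes were named by RefSeq accession from a GRCr8 table, and promoters came from RefSeq for 46 of 57 genes. Control spots were left out and outlier spots set to missing. Log2 signal minus each array's 75th percentile was averaged over a probe's spots, and probes well above background on at least 4 arrays with at least 3 values per group were tested with limma 3.58.1 under R 4.3.3 (eBayes after lmFit; two-sided; Benjamini-Hochberg over 31618 probes; threshold 0.05), tested first on simulated data. P-values measure the spread between rats of 1 diet, which share a slide, so the spread between slides is not in them.

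For a probe detected in only 1 group, that group's mean, unmeasured values included, was set against the lowest measurable level of the other group. Alternatives were normexp with an offset of 50, other scalings and filters, array weights, a choroid plexus covariate, a replicate block and leaving out each array. Normexp used the spot and background medians. A slide block was not run, as each slide held 1 diet. Correlations with 8 marker lists covered 232 relations, adjusted together. Replicate numbers, the position on the slide, did not pair the rats. Members, lists and the rule for named genes (the 10 brightest, the 6 smallest p per direction, an adjusted p under 0.1, a fixed set with brain roles, and list leaders) were chosen with earlier results of these data known. Cyp2d5, Cyp2a2, Cyp2r1 and Cyp27b1 were added after their values were seen. Cyp2c6v1 fell outside the symbol rule.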

Additional observations from a re-analysis of the deposited data

Results flagged for a closer look

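In 56 groups of 4 arrays checked for the named P450 probes, 3 held an array set apart from the other arrays of its diet, where chance marks about 1 in 20. Cyp7b1 had a scaled log2 signal of -1.467 on CCH 1, against -0.742 to -0.6756 on the other CCH arrays. Cyp2j3, on its dimmer probe, had -2.419 on Control 2, against -2.633 to -2.606 on the other Control arrays. Cyp39a1 had -8.161 on Control 3, against -8.845 to -8.767 on the other Control arrays, and was never well above background.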

How the results depend on the processing

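Of 416 values over 22 tested probes of named P450 genes and the alternatives tried, 381 kept their direction and side of the threshold, 3 passed it and 32 changed sign. The 3 were Cyp4a2, with detection on all 8 arrays, with array weights and without CCH replicate 1, so the count of called P450 probes was 1 in each of these, against 0, and 0 to 1 with 1 array left out. Over all probes the count of 55 was 246 with normexp, 29 with no detection filter, 209 with detection on all 8 arrays, 215 with trend and robust settings, 1293 with array weights and 1 with the choroid plexus covariate. It was 0 with the replicate block, where the same-numbered arrays did not deviate together (correlations of 0.145, 0.0797, -0.0052 and 0.246), and 0 to 708 with 1 array left out (708 without CCH replicate 1). The partner, regulator and neighbour probes had 0 calls, and 0 to 3 with 1 array left out, 3 without CCH replicate 1 (2 probes of Rxrg and 1 of Nr3c1).

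The 32 sign changes were as follows. With normexp Cyp4a2 was at -0.017, Cyp4b1 at -0.060, Cyp4x1 at -0.11, Cyp1b1 at -0.15, Cyp2s1 at -0.18 and Cyp4f1 at 0.016. Never-detected P450 probes lay between -0.35 and -0.15 with normexp, so the sign alone gives no direction for dim probes there. With array weights Cyp1b1 was at -0.18, Cyp27a1 at -0.13, Cyp20a1 at 0.076 and Cyp4f1 at 0.0047. With the choroid covariate Cyp7b1 was at -0.07 and Cyp2s1 at -0.00076. With 1 array left out, Cyp26b1 ran from -0.19 to 0.33, Cyp1b1 from -0.29 to 0.51, Cyp27a1 from -0.23 to 0.36, Cyp2s1 from -0.15 to 0.27, Cyp7b1 from -0.0034 to 0.26, Cyp20a1 from -0.075 to 0.081 and Cyp4f1 from -0.080 to 0.055. The cause was not tested. The slide block was not run, and the value table was not refitted because it equals the processed signal. Signal over background limits the dim members, whose spots lay little above local background.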

Other observations

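Cyp2j3, an arachidonic acid epoxygenase, followed the mean of 9 hippocampal neuron markers on its brighter probe over 8 rats (Pearson r = 0.93, exact permutation p = 0.000819, adjusted 0.190; Spearman rho = 0.976, exact p = 0.000397, adjusted 0.0460). Without the 2 rats farthest from the median of the marker mean, r was 0.892, and within diets it was 0.921 in CCH and 0.997 in Control. The dimmer Cyp2j3 probe gave r = 0.246 (rho = 0; exact permutation p = 0.576 for r). Cyp27a1, the sterol hydroxylase, followed the endothelium and pericyte markers with rho = 0.976 (exact p = 0.000397, adjusted 0.0460) and r = 0.706 (exact p = 0.0506, adjusted 0.649), and r was 0.779 without the 2 farthest rats. These were among 232 relations of 29 probes with 8 marker lists, of which 15 had an exact Pearson p under 0.05 and 0 an adjusted one. All points share the scaling by array.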
